A study of Mus musculus with 38 samples.

Results

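The 39 genes described here encode proteins of DNA replication and of the S phase of the cell cycle, the phase in which the genome is copied. They were taken as a fixed list by name, without use of their measured values, and all 39 were found among the 23481 entries of the bulk table, in the SCRB-seq tables and in the SMART-seq2 tables. By role, 6 are the subunits Mcm2 to Mcm7 of the replicative helicase, 3 control the licensing of replication origins (Cdc6, Gmnn and Dtl) and 4 activate the helicase or protect the fork (Cdc45, Gins2, Clspn and Tipin). A further 8 encode polymerase subunits, the sliding clamp and its loaders, and strand processing factors (Pcna, Rfc2, Dscc1, Pola1, Prim1, Pold3, Rpa2 and Fen1), 3 supply nucleotides (Tyms, Rrm1 and Rrm2) and 5 act in repair (Ung, Exo1, Blm, Rad51ap1 and Usp1). The last groups are 9 genes of histone supply and chromatin (Nasp, Slbp, Chaf1b, Casp8ap2, Hells, Cdca7, Atad2, Ubr7 and Wdr76) and 1 transcriptional repressor of the E2F family, E2f8.

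Before S phase, Cdc6 and its partners load the MCM2-7 ring onto replication origins, a step that geminin (Gmnn) blocks once replication has begun. Cdc45 and the GINS complex, of which Gins2 is a subunit, turn the ring into an active helicase, primase and the polymerases then copy the strands, and the clamp Pcna holds the polymerases on DNA. Many of these genes are transcribed from late G1 on under the control of E2F factors, and embryonic stem cells, which have a short G1 phase, spend a large part of their cycle in S phase.

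The cells were of the mouse embryonic stem cell line E14, held in 2i/L, a medium with inhibitors of MEK (PD0325901) and GSK3 (CHIR99021) and the cytokine LIF. For differentiation, 2i/L was replaced by N2B27 medium with 0.25 µM all-trans retinoic acid (RA), so RA exposure and removal of the inhibitors and LIF went together in every treated sample. Bulk libraries covered untreated mESCs (2 libraries), whole cultures at 9 times from 6 h to 96 h of RA (1 library each), 4 quartiles of CD24 surface signal among PDGFRA- cells at 48 h (Q1 to Q4), and 3 terciles of CD24 among PDGFRA- cells (T1 to T3) beside PDGFRA+ CD24- cells at 72 h. At 96 h, ectoderm-like (PDGFRA- CD24+) and XEN-like (PDGFRA+ CD24-) cells were sorted with 2 libraries each, labelled as biological replicates. XEN stands for extraembryonic endoderm. One library each came from continued culture in N2B27 with EGF and FGF2, for ectoderm-like cells at passage 5, grown on a coated surface, and for XEN-like cells after 3 weeks, kept as floating aggregates that were not dissociated. The cultures thus differ in form and age as well as in lineage, and all samples come from a single cell line. SCRB-seq sampled single cells at 9 times from 0 h to 96 h and SMART-seq2 sampled cells at 0 h and after 12 h, 24 h and 48 h, each time from 1 culture.

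Bulk libraries held between 1063830 and 2459483 unique molecular identifiers (UMIs), random tags that keep copies of a molecule made by PCR from being counted again. Replicate libraries of a group differed by more than counting error, with a chi-square per degree of freedom of 9.72 to 16.8 over well counted genes. The sorts carried their labels: relative to mESCs, all 11 ectoderm markers passed the test as higher in the sorted ectoderm-like libraries and all 11 XEN markers as higher in the sorted XEN-like libraries. However, 8 of the 11 XEN markers also passed as higher in the sorted ectoderm-like libraries, where the list held 0.113% ± 0.0915 of all UMIs (SD, n = 2) against 0.936% ± 0.381 in sorted XEN-like cells and 0.0239% ± 0.00595 in mESCs.

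The promoters of many of these genes are textbook targets of E2F factors, so the regions around their starts were searched for 4 forms of the E2F consensus, TTTCCCGC, TTTCGCGC, TTTGGCGC and TTTGCCGC, on both strands. RefSeq promoter windows (build GRCm38.p6, 250 bases before and 50 after the start) matched 30 of the 39 genes; Atad2, Dscc1, Exo1, Gins2, Gmnn, Mcm4, Rfc2, Tipin and Usp1 had no entry. Of the 30, 13 (43.3%) held at least 1 match, against 2.61% of 27025 genes in the same table. Sites of different forms overlapped in Mcm5 and Mcm6. The 13 were Mcm3, Mcm5, Mcm6, Mcm7, Cdc6, Dtl, Clspn, Pola1, Pold3, Hells, Cdca7, Casp8ap2 and Ubr7. Of the 13 genes that were lower in sorted XEN-like cells than in mESCs, described below, all were in the table and 8 held a match, as did Cdc6, the gene that was higher. Among the 25 not called there, 16 were in the table and 4 held a match. A match describes the letters in the window and not a bound site. The stretches shown, 170 bases before to 30 after the start on the strand of the gene, are those of the 4 genes with the largest such decrease among genes with a match, with the matched bases in capitals. They lie at chr12:102757805-102758004 (plus strand), chrX:93632126-93632325 (minus strand), chr1:20820283-20820482 (minus strand) and chr1:128359676-128359875 (minus strand).
Ubr7: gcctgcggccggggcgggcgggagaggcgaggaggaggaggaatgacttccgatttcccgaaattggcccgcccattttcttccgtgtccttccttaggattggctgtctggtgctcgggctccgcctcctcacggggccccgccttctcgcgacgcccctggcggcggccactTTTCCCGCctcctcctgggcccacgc
Pola1: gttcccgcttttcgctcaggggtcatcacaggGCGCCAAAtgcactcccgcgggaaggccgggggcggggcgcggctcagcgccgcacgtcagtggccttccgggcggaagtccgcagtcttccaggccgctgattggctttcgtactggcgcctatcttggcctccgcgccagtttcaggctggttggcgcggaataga
Mcm3: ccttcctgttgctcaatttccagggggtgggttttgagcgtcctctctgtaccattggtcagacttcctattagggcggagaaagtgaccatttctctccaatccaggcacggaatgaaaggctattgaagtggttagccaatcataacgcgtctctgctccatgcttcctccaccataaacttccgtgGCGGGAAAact
Mcm6: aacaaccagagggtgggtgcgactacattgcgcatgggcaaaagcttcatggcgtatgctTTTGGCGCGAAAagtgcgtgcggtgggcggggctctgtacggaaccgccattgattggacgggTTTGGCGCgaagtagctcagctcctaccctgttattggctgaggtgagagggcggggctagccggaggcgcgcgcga

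In Ubr7 and Mcm3 the matched bases shown lie just after the start, at 5 and 20 bases from it, and Mcm3 holds a second match 39 bases after the start, outside the stretch shown. In Pola1 the match begins 138 bases before the start. Mcm6 has an overlapping pair of matches that begins 110 bases before the start and a single match 47 bases before it.

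In bulk, the 39 genes together held between 0.393% and 0.487% of all UMIs during RA exposure and a lower share in sorted XEN-like cells and in both long-term cultures. The mESC libraries held 0.465% and 0.398% of their UMIs in these genes. The libraries of the RA time course lay between 0.393% at 36 h and 0.487% at 12 h, with 0.400% at 96 h. The 24 h, 48 h, 60 h, 84 h and 96 h libraries were within the mESC range, the 6 h, 12 h and 72 h libraries just above it and the 36 h library just below it. Sorted ectoderm-like cells held 0.536% and 0.431%. Sorted XEN-like cells held 0.318% and 0.314%, below both mESC and both ectoderm-like libraries. PDGFRA+ cells at 72 h, at 0.307%, were close to the sorted XEN-like cells at 96 h. The ectoderm-like culture had 0.290% and the XEN-like culture 0.106%, the lowest of the 25 libraries. A share is a property of the whole sample: in bulk, fewer cells in S phase and less of this RNA per cell cannot be told apart. It also depends on what else the cells express, and relative to the single gene Gapdh rather than to all UMIs the sorted XEN-like cells were not lower (log2 ratio to mESCs 0.162 in place of -0.451), since Gapdh itself was lower there, at 2802 and 2321 CPM (UMIs per 1000000) against 3774 and 4029 in mESCs. On the same basis the ectoderm-like culture was not lower than its sorted cells either (0.131 in place of -0.736). Relative to Actb, the 96 h library was lower than mESCs (-0.906 in place of -0.109), and the 12 h library (-0.176 in place of 0.175) and sorted ectoderm-like cells (-0.233 in place of 0.165) changed direction.

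**Figure D1:**
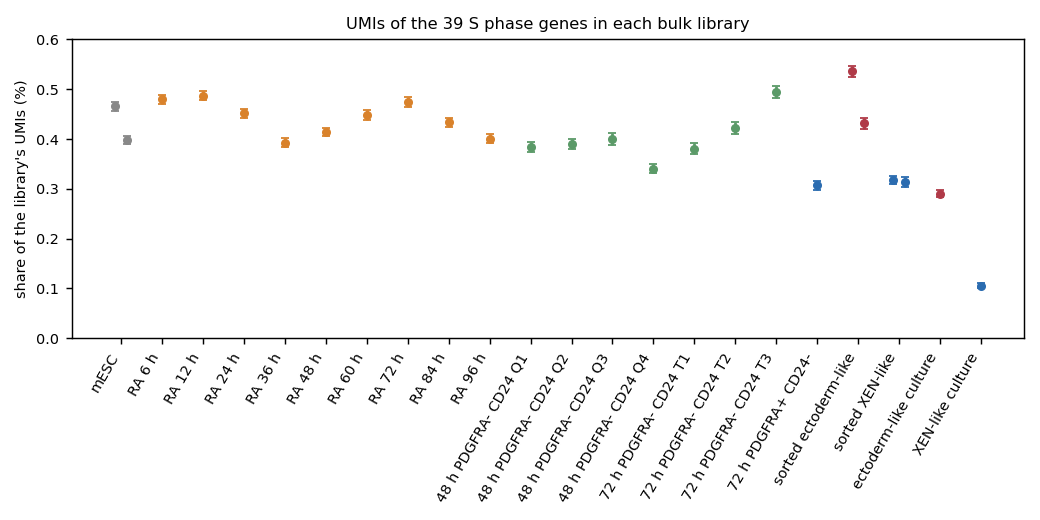
Share of all UMIs held by the 39 genes (percent, vertical axis) in each of the 25 bulk libraries, by group; bars on the points are exact 95% Poisson intervals of the counts. The sorted XEN-like libraries, at 0.318% and 0.314%, and the XEN-like culture, at 0.106%, lie below both mESC libraries, at 0.465% and 0.398%.

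Within this sum, individual genes had different courses. Ratios to the mean of the mESC libraries were read for the 37 genes with a mean of at least 20 CPM over all bulk libraries; Dscc1 and E2f8, with 10.8 and 8.43 CPM on average, were below it. Ratios are of CPM, and since each time point has 1 library, intervals cover counting error only and no test was run. After 24 h none of the 37 differed by more than 1.5-fold in either direction, whereas 18.9% of all 4437 genes at this level were higher and 9.04% lower by this rule. The widest ratios were 0.68 for Wdr76 (35.4 CPM against a mESC mean of 51.7), 0.73 for Chaf1b, 0.76 for Pola1 and 0.86 for Mcm3 on the lower side, and 1.48 for Pold3, 1.42 for Usp1, 1.38 for Cdc6 and 1.29 for Hells on the higher side. The median log2 ratio was 0.09, beside 0.15 for all genes.

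At 48 h, 1 gene was higher and 5 were lower by more than 1.5-fold (background 27.9% and 9.96%). Ung, which removes uracil from DNA, had 18.7 CPM against 39.7 in mESCs, a ratio of 0.47 (95% interval 0.33 to 0.65). Ubr7, a histone H2B ubiquitin ligase of the UBR box family, had a ratio of 0.49, Chaf1b, a subunit of the histone chaperone CAF-1, of 0.52, and Pola1, the catalytic subunit of the polymerase that starts each strand, of 0.58. The fifth was Mcm3, at 119.9 CPM against 186. Clspn (claspin), a fork protection factor, was the gene that was higher, with 75.6 CPM against 39.7, a ratio of 1.90 (1.54 to 2.35). Below the fold, Pold3 stood at 1.40, Nasp at 1.39 and Rrm1 at 1.36. The median log2 ratio was -0.09, beside 0.22 for all genes. On TMM scaling over all 25 libraries the count at 48 h was 13 in place of 6, 12 of them lower, with the median of the genes at -0.43 in place of -0.09. At 96 h this scaling gave 1 higher and 15 lower in place of the counts that follow, with a median of -0.32.

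At 96 h, 3 genes were higher and 8 lower (background 34.1% and 10.2%). Cdc6, the origin licensing factor, reached 112.7 CPM against 56.4 and 31.8 in the mESC libraries. It had lain between 58.1 and 80.4 CPM at every earlier time from 6 h on, so its highest value came at the last time. Pold3, a subunit of polymerase delta, had a ratio of 1.83 and Rrm1, the large subunit of ribonucleotide reductase, of 1.72, while Clspn was at 1.38. Ung was at 15.4 CPM (ratio 0.39), Pola1 at 28.2 CPM (0.46), Ubr7 at 19.5 CPM (0.49) and Wdr76 at 27.7 CPM (0.54). The other genes past the fold were Hells, Mcm5, Cdca7 and Mcm3, all lower. All 6 helicase subunits had ratios below 1 at this time, from 0.62 to 0.89, and a median log2 ratio of -0.44. The 3 nucleotide supply genes had a median of 0.29, which was also the median of all genes, while that of the 37 genes was 0.06.

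Hells, a chromatin remodeller that partners with Cdca7 in DNA methylation, followed its own course. Against 433 and 353 CPM in mESCs, its level was 531 CPM after 6 h and 506 after 24 h, then 332 after 36 h, 302 after 48 h and 215 after 96 h. For Ung the 24 h library gave 36.9 CPM, the 36 h library 23.6 and the 48 h library 18.7. Ubr7 stood at 38.7 CPM after 36 h and 19.5 after 48 h. Rrm1 ran the other way, with 101 and 99.7 CPM in mESCs, 137 at 48 h and 173 at 96 h. Across the 11 libraries of mESCs and the time course, Pcna ranged from 299.8 to 444 CPM, Tyms from 178 to 281, Rrm2 from 154 to 273 and Gmnn from 163 to 227, in no steady direction. Mcm2 ranged from 69.2 to 118 CPM, Mcm4 from 140.4 to 218, Mcm5 from 85.1 to 158, Mcm6 from 61.7 to 107 and Mcm7 from 185 to 289.

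**Figure D2:**
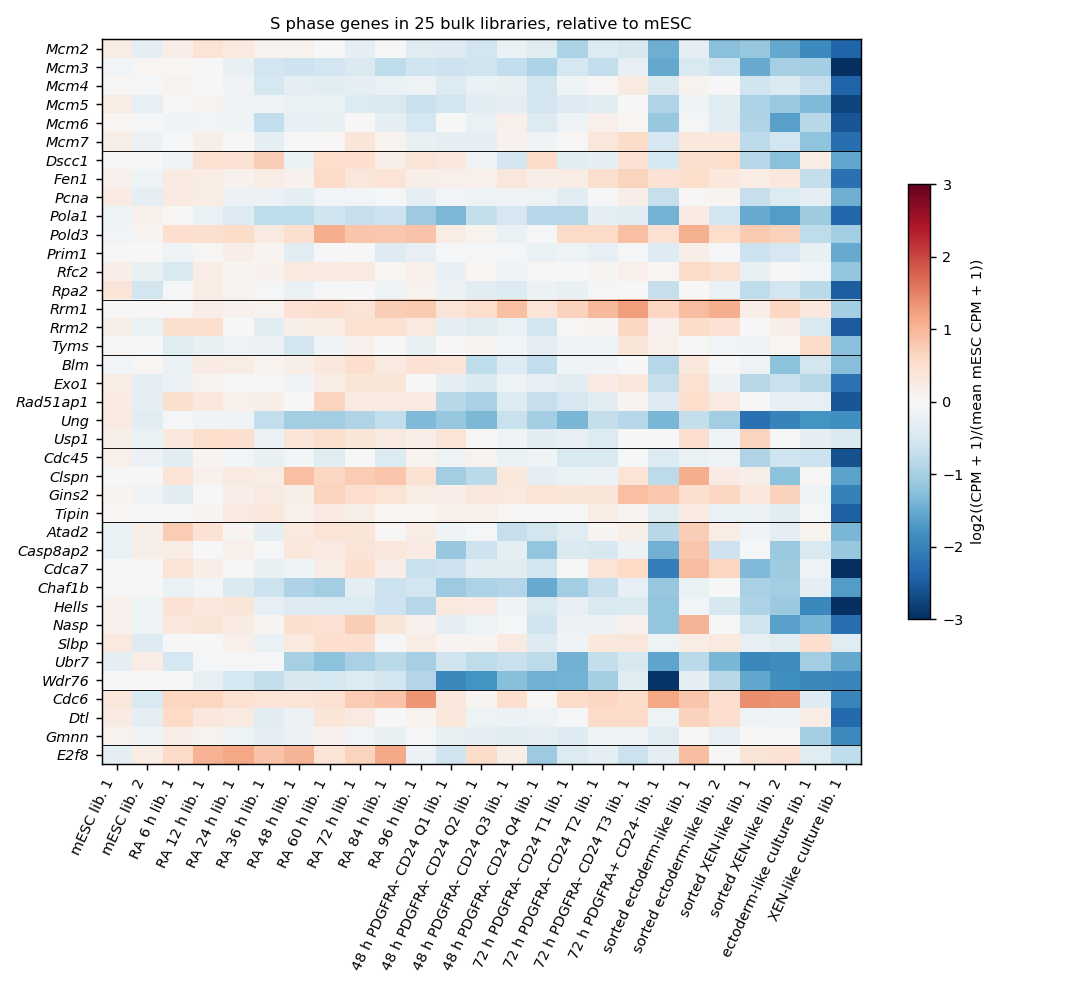
Log2 of CPM + 1 of each of the 39 genes (rows, ordered by role) in each of the 25 bulk libraries (columns), relative to the mean mESC CPM + 1. Ung, Ubr7 and Pola1 are low in the RA libraries from 48 h on, and Wdr76 is below mESCs already at 24 h. All of these are low in sorted XEN-like cells, Cdc6 is high there, and most genes are low in the XEN-like culture.

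The sorted cells at 96 h allow a test. The 6 libraries of mESCs, sorted ectoderm-like and sorted XEN-like cells were fitted together by edgeR's quasi-likelihood test with TMM scaling, over 8947 genes that include all 39. A call means an adjusted p (Benjamini-Hochberg over those genes) below 0.05, and differences are log2 fold changes with their standard error. Each group has 2 libraries, and p-values rest on the spread between these libraries, which the model shares across genes. Both comparisons with mESCs use the same mESC libraries.

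In sorted XEN-like cells, 13 of the 39 genes were lower and 1 was higher than in mESCs, against 10.5% and 12.3% of all genes. The median log2 fold change of the 39 was -0.74, beside -0.06 for all genes, and 32 of the 39 were below 0. The largest decrease was that of Ung, with 47.7 and 31.8 CPM in mESCs and 7.62 and 9.11 CPM in XEN-like cells (-2.47 ± 0.39, adjusted p = 0.000927). Ubr7 had 32.8 and 46.6 CPM in mESCs and 9.65 and 10.0 in XEN-like cells (-2.23 ± 0.39, adjusted p = 0.00174). In both genes the groups lie far apart, and the sorted ectoderm-like libraries fall between them, at 23.9 and 18.7 CPM for Ung and 22.2 and 14.9 CPM for Ubr7.

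Wdr76, a WD-repeat protein found at sites of DNA damage, had 51.6 and 51.8 CPM in mESCs and 16.8 and 13.7 in XEN-like cells (-1.96 ± 0.34, adjusted p = 0.00160). Pola1 had 54.2 and 67.5 CPM in mESCs and 20.8 and 18.2 in XEN-like cells (-1.85 ± 0.36, adjusted p = 0.00338). No XEN-like library reached a mESC or ectoderm-like library in either gene. For genes called on these same libraries, such gaps describe the values and add no support.

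Of the helicase subunits 5 of 6 passed as lower. Mcm2 had 105 and 73.1 CPM in mESCs, 72.8 and 36.8 in ectoderm-like cells and 39.6 and 30.1 in XEN-like cells (XEN-like against mESC -1.55 ± 0.36, adjusted p = 0.00856). Mcm3 had 177 and 195 CPM in mESCs, 134 and 119 in ectoderm-like cells and 64.5 and 93.0 in XEN-like cells (-1.44 ± 0.30, adjusted p = 0.00478). The groups did not overlap in Mcm3, whereas in Mcm2 the ectoderm-like libraries spanned almost the whole way from the lower mESC to the upper XEN-like library and overlapped the latter. Mcm6, with 107 and 99.2 CPM in mESCs and 54.8 and 32.8 in XEN-like cells, changed by -1.44 ± 0.29 (adjusted p = 0.00448), Mcm5 by -1.23 and Mcm7 by -0.88. Mcm4, at 205 and 198 CPM in mESCs and 132 and 149 in XEN-like cells, did not pass (-0.72 ± 0.25, adjusted p = 0.0635).

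Of the 9 genes of histone supply and chromatin, 6 passed as lower: Ubr7, Wdr76, Cdca7 (-1.41), Chaf1b (-1.24), Nasp (-1.24) and Hells (-1.22). Only Pola1 passed among the 8 polymerase, clamp and strand processing genes, of which Pcna had 431 and 301 CPM in mESCs and 224 and 276 in XEN-like cells (-0.74 ± 0.27, adjusted p = 0.0756), and only Ung among the 5 repair genes. None passed among the 4 helicase activation and fork protection genes (-0.98 to 0.34) or the 3 nucleotide supply genes (-0.21 to 0.23). Tyms, which makes thymidylate, had 266 and 251 CPM in mESCs and 242 and 270 in XEN-like cells. Rrm1 had 101 and 99.7 against 115 and 156 CPM, and Rrm2 216 and 167 against 191 and 221 CPM. Gmnn had 212 and 185 against 201 and 191 CPM (-0.22), and E2f8, at 0.21, did not pass either.

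Cdc6 was the gene that rose, from 56.4 and 31.8 CPM in mESCs to 117 and 113 in XEN-like cells (1.19 ± 0.32, adjusted p = 0.0188). Its ectoderm-like libraries, at 78.9 and 63.3 CPM, were between the other groups. Leaving out either XEN-like library lowered the calls among the 39 genes and also those among all genes. The median log2 fold change of the 39 was then -0.60 without the first XEN-like library and -0.91 without the second. Cdc6 was lost in both cases, and also without the second mESC library. Ung, Ubr7, Wdr76, Pola1, Mcm6 and Hells were called in XEN-like cells in each of the 12 other settings and left-out libraries tried. Mcm7 was called in 5 of the 12, with changes from -1.09 to -0.64. Scaling to library totals moved the median of all genes from -0.06 to 0.15 and calls that were higher from 1103 of 2042 to 1336 of 2039, and left Cdc6 higher and 11 genes lower.

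In sorted ectoderm-like cells few of the 39 genes differed from mESCs: 2 were lower and none higher, against 9.28% and 9.85% of all genes. The genes called were Ubr7 (-1.41 ± 0.35, adjusted p = 0.0159) and Ung (-1.20 ± 0.34, adjusted p = 0.0281), whose values are given above. The median log2 fold change was -0.13, beside 0.05 for all genes. Mcm2 (-1.01 ± 0.34, adjusted p = 0.0610), Mcm3 (-0.87 ± 0.29, adjusted p = 0.0569) and Wdr76 (-0.88 ± 0.31, adjusted p = 0.0703) did not pass. Groups of roles without a call ranged from -1.01 to 0.02 for the helicase subunits, -0.42 to 0.52 for the polymerase group, -0.49 to 0.42 for helicase activation, -0.44 to 0.38 for licensing and -0.34 to 0.71 for nucleotide supply. The upper end of the last range is Rrm1, with 193 and 216 CPM against 101 and 99.7 in mESCs (adjusted p = 0.105). These calls depended on scaling. Scaled to library totals, which moved the median of all genes from 0.05 to 0.36 and the share of calls that were higher from 881 of 1711 to 1372 of 1959, Ubr7 and Ung were no longer called and Rrm1 and Cdca7 were called as higher. DESeq2 called none. Ubr7 and Ung were each called in 7 of the 12 other settings and left-out libraries, and both were lost when either ectoderm-like library was left out. Ung was also lost without the first mESC library and Ubr7 without the second. Over the 12, changes ran from -1.69 to -1.08 for Ubr7 and from -1.45 to -0.89 for Ung. The median of the 39 genes was -0.25 without the first ectoderm-like library and -0.05 without the second.

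Directly compared, sorted XEN-like cells had 5 of the 39 genes lower than sorted ectoderm-like cells and none higher, against 5.74% and 6.99% of all genes. The median was -0.56, beside -0.06 for all genes, and 33 of the 39 were below 0. The sorts also differed in pluripotency markers, of which 5 of 12 were called higher and 1 lower in XEN-like cells, with a summed share of 0.627% and 0.452% of UMIs there against 0.0790% and 0.0432% in the ectoderm-like libraries; their part in the result was not tested. Cdca7, a zinc finger protein that recruits Hells to chromatin, had 221 and 180 CPM in ectoderm-like cells and 45.7 and 54.7 in XEN-like cells (-1.89 ± 0.28, adjusted p = 0.00223), with mESCs at 113 and 118 CPM in between. Nasp, a chaperone of histone H3, had 723 and 346 CPM in ectoderm-like cells and 235 and 114 in XEN-like cells (-1.51 ± 0.36, adjusted p = 0.0185). In CPM, the Nasp libraries within each sort lay further apart than the nearest libraries of the different sorts. Dscc1, part of a clamp loader that acts in sister chromatid cohesion, had 14.5 and 14.9 CPM in ectoderm-like cells and 5.08 and 3.65 in XEN-like cells (-1.60 ± 0.46, adjusted p = 0.0401).

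Pola1 had 72.8 and 40.7 CPM in ectoderm-like cells and 20.8 and 18.2 in XEN-like cells (-1.42 ± 0.36, adjusted p = 0.0246). Mcm7 had 283 and 283 CPM in ectoderm-like cells and 132 and 150.4 in XEN-like cells (-0.89 ± 0.26, adjusted p = 0.0436). In these 5 genes no library of one sort overlapped the other, but they were called on these same libraries, so this adds no support. None passed among the repair genes (-1.27 to 0.24), helicase activation (-0.98 to 0.09), nucleotide supply (-0.48 to 0.13) or licensing genes (-0.66 to 0.80). Cdc6, at the top of the last range, missed the threshold (adjusted p = 0.124). Leaving out any library of either sort lowered the calls among the 39 genes and also those among all genes. The median log2 fold change of the 39 was then -0.51 without the first ectoderm-like library and -0.57 without the second. It was -0.43 without the first XEN-like library and -0.67 without the second. Cdca7 was called in all 12 other settings and left-out libraries. Nasp was called in 10 of them, Pola1 in 9, Dscc1 in 7 and Mcm7 in 4. DESeq2 called neither Dscc1 nor Mcm7. Over the 12, changes ran from -1.74 to -1.47 for Dscc1 and from -1.10 to -0.67 for Mcm7.

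**Figure D3:**
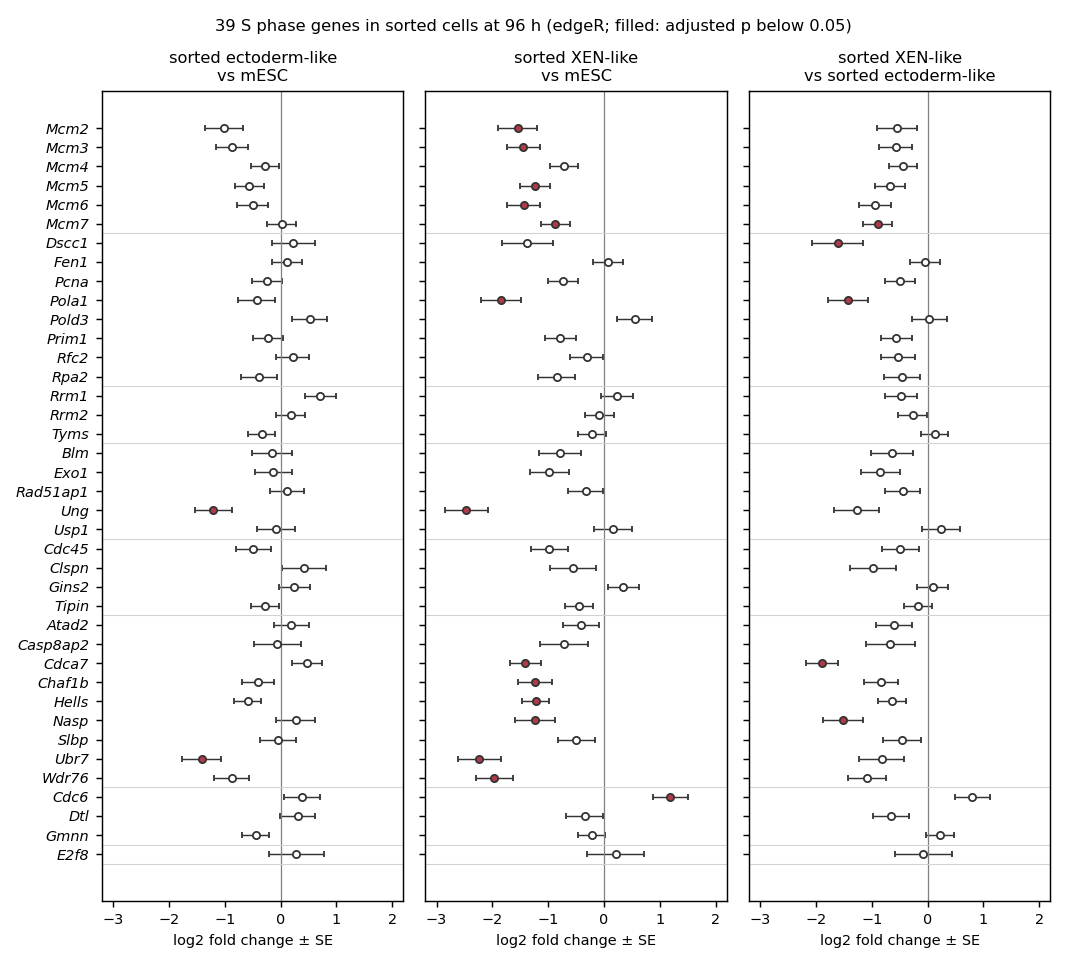
Log2 fold change (horizontal axis) with its standard error for each of the 39 genes in the 3 comparisons of sorted cells and mESCs, 2 libraries per group; filled points have an edgeR adjusted p below 0.05. Most points of both XEN-like comparisons lie left of 0, with Ung, Ubr7, Wdr76 and Pola1 lowest against mESCs and Cdc6 as the called gene to the right.

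Other replication genes were read in the same way, beside the share of all genes called. Of 60 further genes of origin recognition, polymerases, clamp loading, nucleotide supply and the fork, 58 could be tested. In XEN-like cells against mESCs 12 were lower and none higher, against 10.5% and 12.3% of all genes, with a median of -0.55 beside -0.06. The leading ones were Ticrr, a factor that loads Cdc45 (-2.64 ± 0.60, adjusted p = 0.00791), and the nuclease-helicase Dna2 (-2.35 ± 0.70, adjusted p = 0.0310). In ectoderm-like cells Asf1a was higher (0.96 ± 0.29) and Orc1 (-1.54 ± 0.35), Mcm10 (-1.17 ± 0.31) and Uhrf1 (-0.90 ± 0.25) were lower. Of all genes, 9.85% were higher and 9.28% lower there. XEN-like against ectoderm-like cells had 5 lower and none higher, against 5.74% and 6.99% of all genes, led by Atad5 (-1.49), Dck (-1.40) and Rfc3 (-1.32).

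Among E2F and cyclin regulators of S phase entry, 13 of 17 could be tested. Ccne2, a cyclin E gene, was higher in both sorts than in mESCs (1.92 ± 0.34 in ectoderm-like cells and 1.73 ± 0.35 in XEN-like cells). Tfdp2, a partner of E2F factors, passed as higher in the ectoderm-like sort against mESCs (1.22 ± 0.37) and as lower in the XEN-like against the ectoderm-like sort (-1.94 ± 0.40). Of 52 genes of G2 and mitosis, 1 was higher (Cks1b, 0.75) and 5 lower (led by Ckap2, -1.42, Psrc1, -1.19, and Gtse1, -1.01) in XEN-like cells against mESCs, with a median of -0.31. Of all genes, 12.3% were higher and 10.5% lower there, with a median of -0.06. In ectoderm-like cells Cbx5 was higher (0.96) and Tubb4b lower (-0.88), against 9.85% and 9.28% of all genes. XEN-like against ectoderm-like cells had 4 lower (led by Ckap2, -1.85, Psrc1, -1.45, and Cbx5, -1.08) and a median of -0.11, beside 5.74% of all genes lower and a median of -0.06.

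Among the PDGFRA- cells sorted at 48 h, the 39 genes held 0.384%, 0.390%, 0.400% and 0.341% of UMIs in the CD24 quartiles Q1 to Q4. Between the extreme quartiles 1 gene was higher and 3 were lower in Q4 by more than 1.5-fold, against 10.6% and 9.26% of all genes. Clspn was the one that was higher, with 52 against 28 UMIs (ratio 1.75, 95% interval 1.09 to 2.88). Blm, the helicase lost in Bloom syndrome, had 23 against 49 UMIs (0.44, 0.26 to 0.74), Usp1 42 against 67 (0.59, 0.39 to 0.88) and Hells 456 against 719 (0.60, 0.53 to 0.67). The median log2 ratio was -0.07, beside 0.04 for all genes.

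At 72 h the share was higher with more CD24 signal among PDGFRA- cells, at 0.381% in T1, 0.422% in T2 and 0.495% in T3, and PDGFRA+ cells had 0.307%. Of the 37 genes, 35 had a higher CPM in T3 than in T1, and 8 were higher and none lower by more than 1.5-fold, against 9.96% and 14% of all genes. The median log2 ratio was 0.46, beside 0.08 for all genes. The widest ratios were those of Wdr76 (39.9 against 18.6 CPM, 2.14, 95% interval 1.30 to 3.63), Ubr7 (28.4 against 13.98 CPM, 2.03), Chaf1b (49.9 against 27.97 CPM, 1.78) and Exo1 (57.6 against 35.7 CPM, 1.61). Each of these is among the genes with few UMIs, and at a mean of 50 CPM or more 1 gene remained past the fold. Hells (0.88) and Cdc6 (1.00) were the genes not higher in T3. The XEN markers ran the other way along the terciles, with 10 of 11 lower in T3 than in T1 by more than 1.5-fold and none higher, and 8 of the 9 counted pluripotency markers were lower; their part in the result was not tested.

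PDGFRA+ cells at 72 h had 18 genes lower and 1 higher than the mean of the PDGFRA- terciles, against 22.6% and 16.2% of all genes. The median log2 ratio was -0.55, beside -0.08 for all genes. Cdca7 had 27.2 CPM in PDGFRA+ cells and 117, 151 and 176 CPM in T1, T2 and T3, a ratio of 0.18 (95% interval 0.13 to 0.26). Wdr76 had 8 UMIs in PDGFRA+ cells (5.88 CPM, ratio 0.21), Mcm6 a ratio of 0.44 and Nasp of 0.46. Cdc6 was again the gene that was higher, with 100.0 CPM against 65.3, 68.8 and 65.2 CPM in the terciles (1.505, 1.21 to 1.87). Gins2 (1.19), Usp1 (1.14) and Tyms (1.06) followed below the fold. The helicase subunits, with ratios from 0.44 to 0.70, and the chromatin group, from 0.18 to 0.79, were all below 1. For the chromatin and helicase genes the direction was thus that of the tested comparison of sorted cells at 96 h, in a sort at another time, with separate libraries and no replicate.

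In the long-term cultures most of the 39 genes were low. The ectoderm-like culture had 25 genes lower and 1 higher than the mean of the sorted ectoderm-like libraries, against 28.6% and 18.3% of all genes, and a median log2 ratio of -0.72, beside -0.15. Nasp had 135 CPM against 723 and 346 (ratio 0.25, 95% interval 0.21 to 0.28), Hells 102 against 370.1 and 281 (0.31), Pold3 18.2 against 67.2 and 45.9 (0.32) and Mcm7 98.0 against 283 and 283 (0.35). Each of these was below both sorted libraries. Tyms was higher, at 383 CPM against 265 and 243 (1.51, 1.36 to 1.66). Slbp (1.19), Ubr7 (1.01) and Tipin (0.93) came next in the order of ratios.

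In the XEN-like culture 33 genes were lower and none higher than in sorted XEN-like cells, against 40.5% and 17.3% of all genes, and the median was -1.47, beside -0.35. Cdc6, high in the sorted cells, had 15 UMIs or 10.3 CPM in culture against 117 and 113 CPM (ratio 0.090, 95% interval 0.050 to 0.15), the widest ratio of any of the 37. Rrm2 had 33.1 CPM against 191 and 221 (0.16), Gins2 24.8 against 134 and 170 (0.16) and Rad51ap1 6.21 against 41.1 and 34.6 (0.16). The 4 genes not past the fold were Ubr7, with a ratio of 1.33 (0.71 to 2.46), Ung, with 1.24 (0.62 to 2.50), Slbp, with 0.96, and Wdr76, with 0.82. The 52 genes of G2 and mitosis were low in this culture too, at 0.224% of UMIs against 0.991% and 0.780% in the sorted XEN-like cells and 0.712% in the ectoderm-like culture.

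Set side by side, the cultures differed in 31 genes, all lower in the XEN-like culture, against 37.8% of all genes lower and 20.9% higher, with a median of -1.46 beside -0.30. All 37 ratios were below 1. Cdca7 had 11.7 against 103 CPM (0.11), Dtl 5.52 against 37.5 (0.15), Rad51ap1 6.21 against 34.8 (0.18) and Tipin 28.97 against 155 (0.19). The smallest differences were in Ung and Wdr76 (0.97 each), Usp1 (0.89) and Pold3 (0.83), whose intervals include 1. The lineage, the time in culture and the form of growth cannot be told apart between these libraries.

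Single cells were measured by SCRB-seq, in which 1 cell is sorted per well and its RNA counted in UMIs. Cells were sorted by Hoechst, a DNA stain; a gate on cycle phase is not given in the sources used here. Wells with more than 2000 UMIs numbered between 137 (96 h) and 335 (6 h) of 384, with medians of 3560 to 5069 UMIs, and the tables of all times carry the same well names, so a name does not mark a cell. Pooled over cells, the 39 genes held 0.331% of UMIs at 0 h (95% Poisson interval 0.323% to 0.339%), 0.432% at 6 h, 0.439% at 12 h, 0.425% at 24 h, 0.427% at 36 h, 0.384% at 48 h, 0.416% at 60 h, 0.448% at 72 h (0.437% to 0.460%) and 0.366% at 96 h (0.352% to 0.380%). The 0 h cells were the lowest, with an interval clear of every other time, while the interval of the 72 h cells overlapped those of the 6 h and 12 h cells. These intervals cover counting error only and leave out the spread between cells. With 1 culture and 1 plate per time, plate and time cannot be told apart, and the mESC bulk libraries, at 0.465% and 0.398%, were not low relative to the bulk time course.

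Gene by gene, levels here are UMIs per 10000 UMIs of all kept cells. Ubr7 had 1.39 at 0 h and 0.40 at 96 h, Pola1 1.31 and 0.47, Ung 0.81 and 0.33 and Wdr76 0.67 and 0.25. Cdc6 had 0.17 (32 UMIs) at 0 h and 0.92 (67 UMIs) at 96 h, Rrm1 0.47 and 1.28 and Clspn 0.074 and 0.69. In each of these 7 genes the 95% Poisson intervals of both times do not touch. Such intervals cover counting error of the pooled UMIs only, not the spread between cells or cultures. The direction of these 7 genes was that of the bulk time course, which did not hold for all 39 genes: Mcm7 and Mcm4 were higher at 96 h than at 0 h in these cells and below mESCs in bulk. Nasp had 2.67 at 0 h, 6.98 at 72 h and 4.03 at 96 h. Mcm6 had 1.76 at 0 h and 0.66 at 96 h and Mcm5 1.16 and 0.70, while Mcm2 had 1.07 at both times, Mcm3 1.77 and 1.39, Mcm4 1.58 and 1.94, and Mcm7 1.71 (1.53 to 1.91) and 2.72 (2.36 to 3.13). The Mcm4 intervals of both times overlap and the Mcm7 intervals do not. Pcna had 1.18 at 0 h, 3.08 at 6 h and 1.79 at 96 h, Tyms 2.24 and 1.64, Rrm2 0.88 and 1.80 and Gmnn 0.84 and 0.98 at 0 h and 96 h. Dscc1 had no UMI in the 137 cells at 96 h, which allows up to 0.051.

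Per cell these genes are sparse: the median cell had 12 to 20 UMIs from 8 to 12 of the 39 genes, depending on the time. To compare the spread between cells, each cell was thinned to 2000 UMIs, and the variance of the summed UMIs of the 39 genes was divided by their mean, which is close to 1 for counting alone. It was 1.70 at 0 h, 1.62 at 6 h, 1.78 at 12 h, 1.72 at 24 h, 1.81 at 36 h, 1.58 at 48 h, 2.13 at 60 h, 1.85 at 72 h and 2.60 at 96 h. Cells thus differed in S phase RNA by more than counting error at all times, most at 96 h, when a cell had from 0 to 22 such UMIs after thinning with a median of 6. The 60 other replication genes did not share the high value at 96 h, with 1.61 there against 1.70 at 60 h and 1.71 at 72 h, and 1.37 at 0 h. The genes of G2 and mitosis had 3.14 at 0 h, 1.66 at 6 h and 3.14 at 96 h. Across cells, correlations of the thinned sums of the 39 genes with those of the 60 other replication genes had r from 0.018 to 0.277 and with those of G2 and mitosis from -0.070 to 0.098, over 137 to 335 cells that share a plate and its depth. At this depth such values are no finding.

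At 96 h the cells were split by k-means into 73 ectoderm-like and 64 XEN-like cells, using variable genes that hold none of the 39. All 11 ectoderm markers were higher in the first and all 11 XEN markers in the second cluster. The 10 genes that lead the XEN-like cluster by fold hold 2 XEN markers (Gata6 and Lamc1) and 2 pluripotency markers (Dppa5a and Klf4). The 39 genes held 0.382% (0.363% to 0.402%) of UMIs in the ectoderm-like cluster and 0.348% (0.328% to 0.368%) in the other. This order turned over when cells were clustered on log2 values (0.352% and 0.373%, in 53 and 84 cells). It widened among the 40 and 30 cells with over 4000 UMIs, to 0.409% (0.387% to 0.432%) and 0.306% (0.283% to 0.330%). The difference between the lineages thus depended on how cells were classed and which were kept, and was not firm. The variance over mean within a cluster, 2.53 and 2.70, was as large as over all cells at 96 h (2.60).

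**Figure D4:**
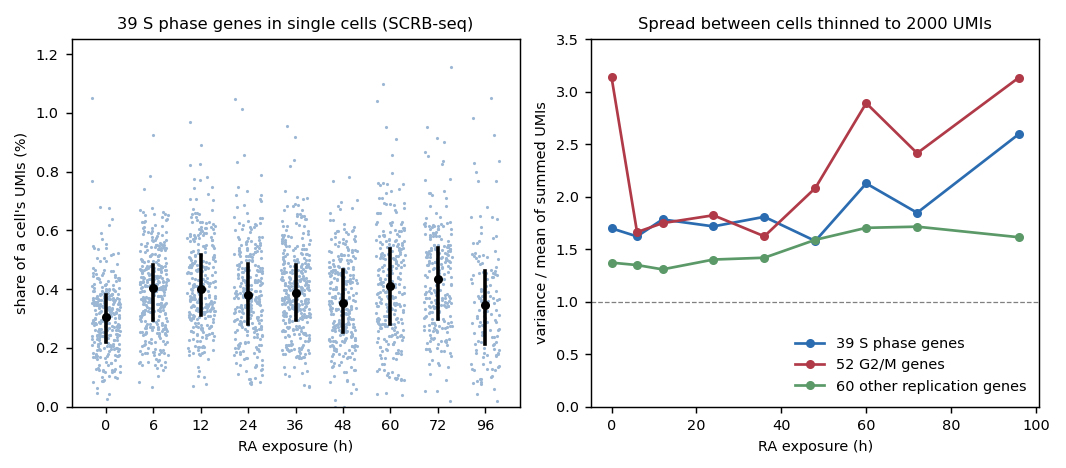
SCRB-seq cells with more than 2000 UMIs at 9 times: percent of a cell's UMIs held by the 39 genes (left, 1 small point per cell; black, median and quartiles), and the variance over mean of summed UMIs after thinning to 2000 UMIs per cell (right) for the 39 genes, the 52 genes of G2 and mitosis and the 60 other replication genes, with 1 as a dashed line. The pooled share is lowest at 0 h (0.331%), and the variance over mean is highest at 96 h (2.60).

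SMART-seq2 reads whole transcripts of single cells, and the values are RPKM, a level per transcript length and per read depth. Each cell was brought to the same summed RPKM, the median over the cells in 2i/L. There were 82 cells at 0 h, 86 at 12 h, 89 at 24 h and 82 at 48 h, with 1 culture per time, and the read depth is unknown. A cell had a median of 36, 36, 37 and 35 of the 39 genes above 1 RPKM at these times. On this scale, per length, Pcna had the highest mean of the 39 genes at each time, at 572, 488, 434 and 397 RPKM. Rrm2, with 376, 407, 293 and 261 RPKM, and the fork protection gene Tipin, with 340.0, 325, 383 and 375 RPKM, came next. Rrm1 had 96.8, 108, 88.6 and 89.1 RPKM, Tyms 34.4, 39.6, 38.9 and 37.7 and Gmnn 253, 238, 202 and 169.

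The helicase subunits were at like levels at 0 h, from 161 RPKM for Mcm4 over 211 for Mcm5, 223 for Mcm2, 249.9 for Mcm6 and 258 for Mcm3 to 266 for Mcm7, and encode subunits that the ring holds in equal number. At 48 h Mcm3 had 170.4, Mcm5 142, Mcm4 137, Mcm2 195, Mcm6 212 and Mcm7 226 RPKM. All 6 means were lower at 48 h than at 0 h. Gene values at 48 h, here and below, include 16 cells with fewer than 6000 genes above 1 RPKM, against 0 such cells at 0 h. The part of these cells in the gene differences was not tested. E2f8 was seen above 1 RPKM in the fewest cells at each time, 32.9% at 0 h, 45.3% at 12 h, 53.9% at 24 h and 41.5% at 48 h. Wdr76 was above 1 RPKM in 78.05% of cells at 0 h and 57.3% at 48 h, with means of 34.7 and 17.1 RPKM. Ubr7 had a mean of 69.8 RPKM at 0 h, 86.1 at 24 h and 39.5 at 48 h, Ung 50.1, 58.2 and 35.3, and Cdc6 28.3, 38.5 and 39.4.

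Each cell was summed up by the mean over the 39 genes of log2(RPKM + 1). Its mean over cells was 5.91, 5.94, 5.90 and 5.26 at the 4 times and its SD over cells 0.532, 0.650, 0.621 and 1.18. The score at 48 h went with the number of genes detected (r = 0.811 over the 82 cells, a description). Cells with fewer than 6000 genes above 1 RPKM numbered 0, 8, 4 and 16, and among the others the SD was 0.532, 0.466, 0.453 and 0.612 and the mean 5.91, 6.08, 5.99 and 5.70. This cut was chosen after the values were seen. The cells left out had a mean of 3.44 at 48 h.

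Across cells, the helicase subunits went with the other 33 genes. Over the 82, 86, 89 and 82 cells, the mean log2 value of Mcm2 to Mcm7 correlated with that of the others with r = 0.632, 0.856, 0.790 and 0.789, and among cells with at least 6000 genes with r = 0.632, 0.745, 0.649 and 0.516. Cells of a time share a plate and differ in detection, so these are descriptions with no test. With the genes of G2 and mitosis, Mcm2 to Mcm7 had r of -0.175, 0.332, -0.117 and 0.306 over all cells and of -0.175, -0.467, -0.395 and -0.302 among cells with at least 6000 genes, so the sign at 12 h and 48 h depended on the few cells with low detection. For the mean over all 39 genes, r with G2 and mitosis was 0.107, 0.279, -0.037 and 0.443 over all cells. Among cells with at least 6000 genes it was 0.107, -0.328, -0.253 and 0.182. At 0 h and 48 h the 39 genes thus did not share the negative sign of Mcm2 to Mcm7. Between single genes, the mean Spearman correlation was 0.360, 0.319, 0.312 and 0.292 over the 15 pairs of helicase subunits. It was 0.157, 0.111, 0.130 and 0.198 over all pairs of the 39 genes, and between the 39 genes and those of G2 and mitosis it was -0.055, -0.058, -0.080 and -0.003.

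**Figure D5:**
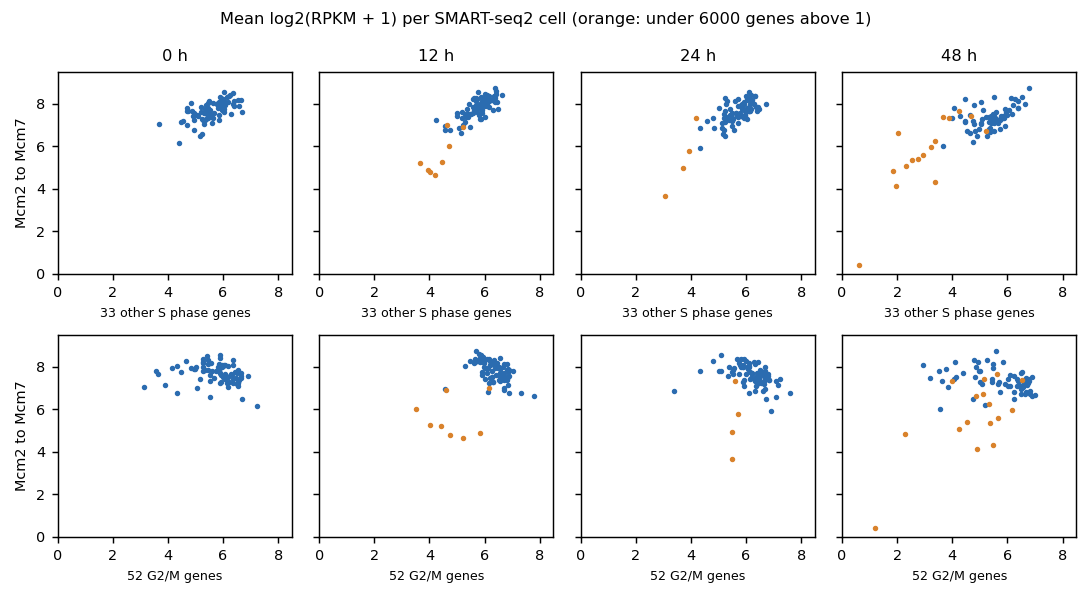
Mean log2(RPKM + 1) of Mcm2 to Mcm7 (vertical axes) against that of the other 33 genes (upper row) and of the 52 genes of G2 and mitosis (lower row) in SMART-seq2 cells by time, 1 point per cell, with cells under 6000 genes above 1 RPKM in orange. Cells high in Mcm2 to Mcm7 are high in the other 33 genes at each time, and the 16 orange cells at 48 h hold most of the low values there.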

How the data were processed

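Bulk and SCRB-seq values are UMI counts per gene, which the authors made by alignment to the mRNA sequences of RefSeq (mouse) using BWA (0.7.4) and deposited without normalization. The SMART-seq2 values are RPKM, made by the authors with TopHat and Cuffnorm (versions not given in the sources used here; build mm10) and deposited for cells above a read minimum. Of the bulk genes, 2 had text in place of a count and were left out, and SMART-seq2 values with a decimal comma (0.127% to 0.140% per time) were read as numbers.

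CPM are counts per 1000000 UMIs of a library. The test between sorted cells and mESCs was that of edgeR (4.0.16, under R 4.3.3; filterByExpr, TMM, quasi-likelihood, Benjamini-Hochberg over 8947 genes; biological coefficient of variation 0.247); DESeq2 1.42.0 was an alternative. Tested on simulated data with 200 genes changed 4-fold, the step recovered 92% (ectoderm-like against mESC, 8770 genes), 87.5% (XEN-like against mESC, 8453) and 90% (between the sorts, 8758). In the same order, 7, 7 and 12 unchanged genes were called. Most of the 39 genes changed by less than 4-fold, and recovery of smaller changes was not tested. Single libraries were compared by ratios of CPM with exact 95% intervals for counting error only. The 39 genes, the other lists and all tests were chosen with earlier results of these data known. Named with values were the 6 genes called with the largest change in each direction, the 4 with the widest ratios between single libraries, 3 from each other list, and Mcm2 to Mcm7, Pcna, Tyms, Rrm1, Rrm2 and Gmnn; other genes were named after their values were seen. One gene that this rule names is not reported here. SCRB-seq cells at 96 h were clustered by k-means on variable genes with 1 minus the Pearson correlation as the distance. Single cells were sorted into wells and no doublet caller was run. Other steps ran in Python (3.11.15) on pandas (2.3.3), SciPy (1.17.1) and NumPy (2.4.6), and plots in matplotlib (3.10.9). Promoter windows were those of RefSeq on GRCm38.p6.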

Additional observations from a re-analysis of the deposited data

Results flagged for a closer look

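Between the lineages, 5 of the 39 genes differed in their change from mESCs (edgeR's quasi-likelihood test, 2 libraries per group, adjusted p below 0.05). Over all genes, 5.74% were lower and 6.99% higher by this test. The difference is the log2 fold change of sorted XEN-like against mESC cells minus that of sorted ectoderm-like against mESC cells. It equals the direct comparison of the sorts described above, so these 5 calls are not a further result. The differences were -1.89 for Cdca7, -1.60 for Dscc1, -1.51 for Nasp, -1.42 for Pola1 and -0.89 for Mcm7. The Mcm7 call held in 4 and the Dscc1 call in 7 of the 12 other settings and left-out libraries. Cdca7 and Nasp had a positive value against mESCs in ectoderm-like cells (0.48 and 0.27, neither called) and a negative one in XEN-like cells (-1.41 and -1.24, both called). Dscc1 had 0.23 and -1.37, with neither called against mESCs. No group had enough libraries to look for a single library that stood apart.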

How the results depend on the processing

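Of 115 comparisons of a main result with an alternative, 66 were held the same, 28 moved, 12 were weaker, 3 stronger and 6 reversed. Counts were held the same within a factor of 1.5 of the main count, so a smaller count could still be held the same. Bulk shares were held the same within the spread between replicates and single-cell shares within counting error. Ratios of the spread between cells and the difference between cell classes had a set margin. Of 252 comparisons for single genes, 203 kept their sign and their call. The other 49 were no longer past the threshold, and none changed sign. Over left-out libraries, the count of genes called ranged from 0 to 3 in ectoderm-like cells against mESCs (2 in full), from 7 to 14 in XEN-like cells against mESCs (14) and from 1 to 5 between the sorts (5). Leaving out a library of a compared group lowered the calls over all genes as well. DESeq2 gave counts of 0, 14 and 3, no low-count filter 4, 18 and 5, library totals 2, 12 and 5, with the 2 in the opposite direction, and a fit with the replicate number as a block (replicate block) 5, 20 and 8. Replicate numbers were not taken to pair samples: deviations of same-numbered libraries correlated with 0.146, 0.016 and 0.450 over genes, and there are only 2 numbers. Where 1 library met 1 library, the counts past 1.5-fold changed as follows. A fold of 2 gave 1 for Q4 against Q1 (4 at 1.5-fold), 2 for T3 against T1 (8), 6 for PDGFRA+ cells (19), 2 at 48 h (6), 4 at 96 h (11) and 11 for the ectoderm-like culture (26). A mean of 50 CPM gave 1, 1, 12, 1 and 6 for the first 5 of these, a mean of 5 CPM 1 at 24 h (0), and TMM scaling 4 for T3 against T1, 2 at 24 h and 13 at 48 h. Dividing by Actb in place of all UMIs moved the log2 ratio of the summed genes to -1.08 (from -0.496) for PDGFRA+ over PDGFRA- cells, -0.176 (from 0.175) at 12 h, -0.906 (from -0.109) at 96 h, -0.847 (from -1.58) and -1.04 (from -0.736) for the XEN-like and ectoderm-like cultures over their sorted cells, and -1.42 (from -0.451) and -0.233 (from 0.165) for sorted XEN-like and ectoderm-like cells. Dividing by Gapdh gave -1.30, 0.131, 0.162 and 0.678 for the last 4 in the same order. Both genes themselves differed between groups. The mean over SCRB-seq cells gave a log2 ratio of the share to 0 h of 0.492 at 72 h (0.438 pooled) and 0.225 at 96 h (0.145). XEN-like minus ectoderm-like cells at 96 h, -0.034 percentage points, became -0.103 above 4000 UMIs and 0.0211 on log2 values. The ratio of the variance over mean at 96 h to that at 0 h, 1.53, was 2.04 without thinning, and the ratio of the SDs of SMART-seq2 cells at 48 h and 0 h, 2.21, was 2.49 with a pseudocount of 0.1 and 1.15 among cells with at least 6000 genes, an alternative chosen after seeing the data. The cause of these changes was not tested. The depth of a bulk library, from 1063830 UMIs, limits statements on genes under 20 CPM.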
